A study of Mus musculus with 12 samples.

Results

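Cadherins are membrane proteins that hold cells together through calcium-dependent contacts between their extracellular repeats. The genes described here are the cadherins, protocadherins, Fat and Dachsous cadherins and Celsr cadherins measured in the femoral shaft of mice after binge ethanol. They were taken as the genes of the deposited normalized table whose symbol is Cdh with a number, starts with Pcdh, or is Fat1 to Fat4, Dchs1 or Dchs2, or Celsr1 to Celsr3. This gave 67 of the 17408 genes in that table. All 67 were among the 18161 genes that passed the low-count filter. Another 35 genes of these families were in the count table of 49315 genes but not in the normalized table, and the highest mean count among them was 9.

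Classical cadherins bind the same cadherin on the next cell and are tied to actin through beta-catenin and alpha-catenin. In bone, N-cadherin (Cdh2) and osteoblast cadherin (Cdh11) are the classical cadherins known from osteoblasts. Fat and Dachsous proteins are giant cadherins that bind each other across cell borders and feed into planar cell polarity and the Hippo growth pathway. Clustered protocadherins are best known from neurons, where each cell displays its own mix of isoforms.

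The libraries came from femoral shafts of male mice aged 12 weeks. Wild-type mice (Cat +/+) and mice labelled as knockouts of the peroxide-degrading enzyme catalase (Cat -/-) were gavaged on 4 consecutive days with ethanol at 3, 3, 4 and 4.5 g per kg, drawn from a 31.5% (v/v) solution, or with an equal volume of PBS, and were killed 6 hours after the last dose. Marrow had been spun out of the shafts before RNA extraction. Pools of 2 mice made up the libraries, with 3 libraries a group. Libraries 7 to 9 are wild type given PBS, 10 to 12 wild type given ethanol, 1 to 3 knockout given PBS and 4 to 6 knockout given ethanol. All p-values thus refer to variation among pools. The labels carry neither batch nor date.

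Library totals ran from 19950222 to 28789308 counts, of which the 67 genes took 0.0700% to 0.108%. Cat was at 65.9 to 74.2 CPM (counts scaled to library size with TMM factors) in the knockout libraries and at 128 to 175 CPM in the wild-type libraries. Each knockout library was thus below each wild-type library, but the transcript was not absent. The labels do not state which part of Cat was deleted, and these levels say nothing of the protein. Libraries 8, 9 (wild type with PBS) and 12 (wild type with ethanol) stood apart: 16 skeletal muscle genes took 2.89% to 3.49% of their counts against 0.132% to 1.82% elsewhere, and mitochondrial genes 5.04% to 6.40% against 2.20% to 2.94%. Osteoblast and osteocyte markers were present in every library, and summed markers of endothelium (368 to 446 CPM) and of Schwann cells (143 to 163 CPM) varied little. The summed CPM of 9 osteoblast markers was 18963, 20608 and 22550 in the knockout PBS libraries and 9979, 13455 and 6271 in the knockout ethanol libraries. In wild type the sum was 13280, 13717 and 16382 with PBS and 12302, 11941 and 6741 with ethanol. The ethanol libraries were thus below the PBS libraries in each genotype for osteoblast markers.

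Per kilobase of exon, Cdh11 (20.3 CPM per kb, mean of 12 libraries) and Cdh5 (19.4) were the most abundant members. Cdh5 encodes VE-cadherin, the adhesion molecule of endothelial junctions. Fat1 (10.9), Cdh15 (8.83, the muscle cadherin of satellite cells) and Cdh2 (8.73) came next, followed by Pcdh7 (5.19), Pcdh18 (4.59) and Pcdhgc3 (4.09). The ranges of Cdh11 and Cdh5 over the libraries overlapped, as did those of Cdh15 and Cdh2. All other members were below 1.6 CPM per kb, and Dchs2 (0.0940) and Cdh10 (0.0451) were lowest.

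**Figure D1:**
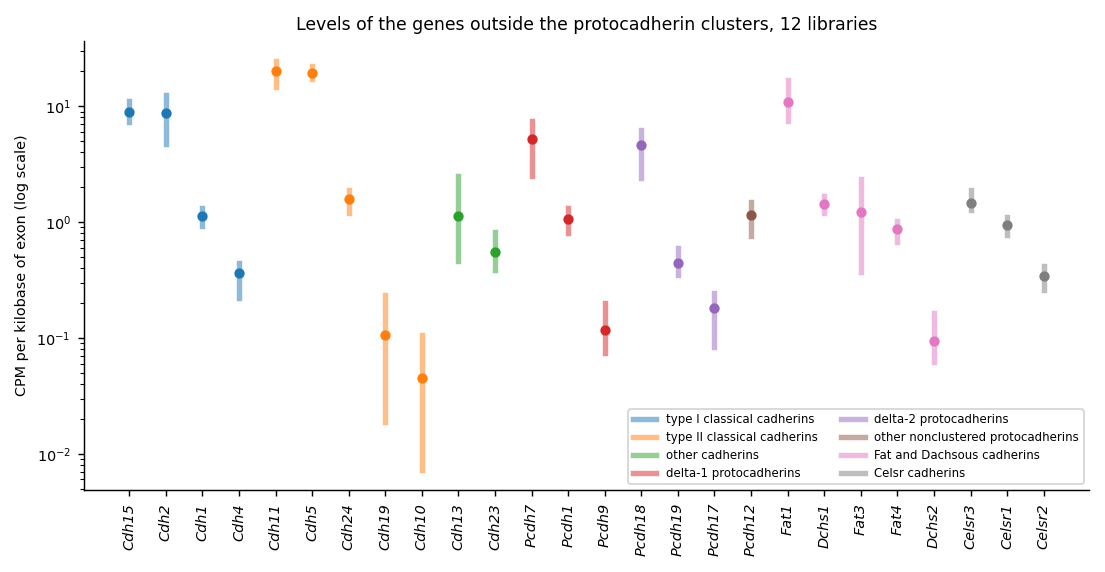
Mean level over the 12 libraries (points) and range from the lowest to the highest library (bars) of the 26 members outside the protocadherin clusters, in CPM per kilobase of exon on a log axis, coloured by subfamily. Cdh11 and Cdh5 are at the top at 20.3 and 19.4, and the widest relative ranges belong to the low genes Cdh10 and Cdh19 and, among the better measured genes, to Fat3 and Cdh13.

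More members were lower than higher after ethanol. In wild type 1 member, Fat3, passed the edgeR test as lower and 0 as higher. Of all genes tested 1.26% were called, 0.705% as lower and 0.556% as higher. In the knockout 3 members were lower (Fat3, Pcdhac2 and Pcdhb11) and 0 higher. There 1.87% of all genes were called, 0.903% as lower and 0.964% as higher. With both genotypes averaged, 13 members (19.4%) were lower and 1 (Cdh23) was higher. Over all genes tested 10.8% were called in that comparison, 5.81% as lower and 5.02% as higher. The median log2 fold change of the 67 members was −0.22 in wild type and −0.20 in the knockout, beside −0.02 and 0.00014 for all genes. At an unadjusted p under 0.05 in wild type, 17 members were lower (25.4%, against 8.98% of all genes) and 1 was higher (7.03% of all genes). In the knockout, 15 were lower (22.4%, against 8.16%) and 1 was higher (8.25% of all genes). Fitted values below 0 were found for 50 members in wild type (74.6%, against 53.7% of all genes) and 54 in the knockout (80.6%, against 50%). These shares are descriptions, since 41 of the 67 members lie in the protocadherin clusters and are not independent. DESeq2 called 3 members lower in wild type and 8 in the knockout, and 0 higher in either, while it called 3.86% and 5.23% of all genes.

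Since the effects in wild type and knockout share no library, they can be set side by side. In wild type 16 members had all ethanol libraries below all PBS libraries (23.9%, against 9.06% of all genes) and 1 had them above (7.32% of all genes). In the knockout there were 21 below (31.3%, against 16%) and 2 above (16.3% of all genes). All 3 ethanol libraries were below all 3 PBS libraries in both genotypes for 12 members (17.9%), against 5.46% of all genes tested. These were Fat1, Fat3, Cdh2, Cdh10, Pcdh7, Pcdh12, Pcdh17, Pcdh18, Pcdhac2, Pcdhb11, Pcdhb20 and Pcdhgc3. In the opposite direction there were 0 members, against 4.16% of all genes. Across the 67 members the fold changes in both genotypes had a Pearson correlation of 0.710 and a Spearman correlation of 0.604, given as a description, since the members share libraries and many lie in 1 locus. In bulk bone, fewer cells of a type and less RNA per cell cannot be told apart for any of these genes.

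**Figure D2:**
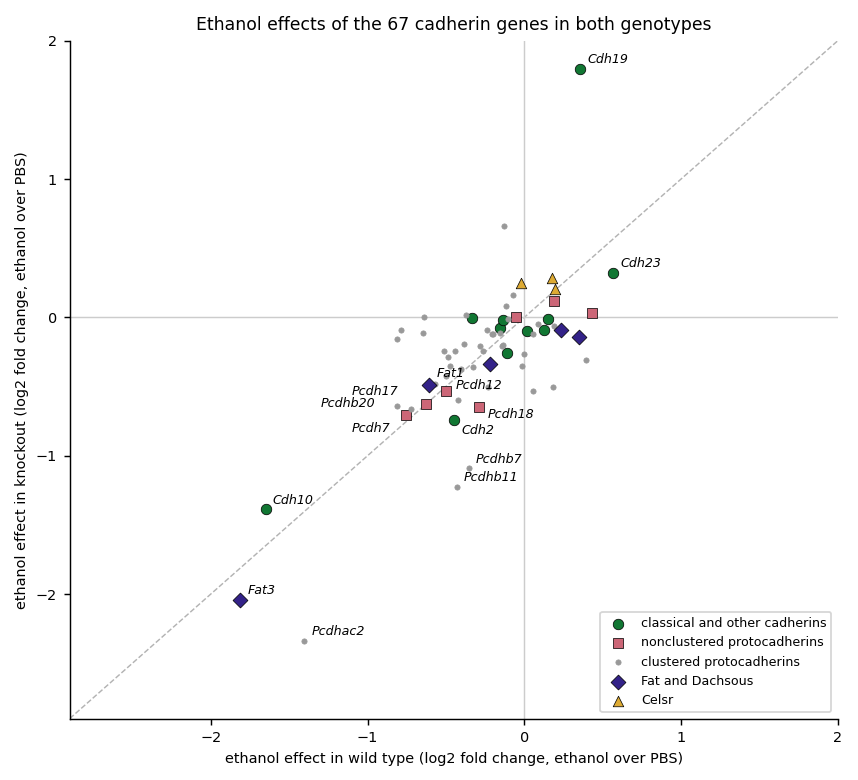
Log2 fold change of each of the 67 members with ethanol over PBS in wild type (horizontal) and in the knockout (vertical), with the line of equal effects dashed. Fat3 (−1.81 and −2.04), Pcdhac2 and Cdh10 lie far to the lower left, most members lie slightly below 0 on both axes, and Cdh19 stands out at the top with 1.80 in the knockout.

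Fat3, a giant atypical cadherin known from neuronal wiring, had the lowest adjusted p of the members. Its level was 38.5, 38.9 and 33.8 CPM in wild type with PBS and 9.82, 13.01 and 8.79 CPM in wild type with ethanol. Knockout levels were 39.9, 50.0 and 50.8 CPM with PBS and 12.3, 13.9 and 7.96 CPM with ethanol. The highest ethanol library was thus far below the lowest PBS library. Fat3 fell by 1.81 on the log2 scale in wild type (SE 0.203, adjusted p = 0.00937, edgeR), to 0.285-fold, and by 2.04 in the knockout (SE 0.202, adjusted p = 0.00304), to 0.243-fold. Averaged over genotypes the change was −1.93 (SE 0.143, adjusted p = 0.000193). The call held in all 12 fits that left out 1 library. Without libraries 8, 9 and 12 the wild-type change was −1.74 but did not pass (adjusted p = 0.112), with 1 wild-type PBS library left. Its counts ran from 167 to 1439 per library. Fat3 lies on chromosome 9 (15910189 to 16501285, minus strand, GRCm38).

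Fat1, a regulator of actin at cell borders and the most abundant Fat cadherin here, moved less. Its level was 266, 162 and 199 CPM in wild type with PBS, and 128, 138 and 145 CPM with ethanol. In the knockout it was 188, 199.9 and 203 CPM with PBS, and 135, 172 and 116 CPM with ethanol. All ethanol libraries were below the PBS libraries of their genotype, although library 7 was well above the other wild-type PBS libraries. The averaged log2 change was −0.55 (SE 0.122, adjusted p = 0.0189), while neither genotype alone passed (−0.61, adjusted p = 0.119 in wild type, and −0.49, adjusted p = 0.184 in the knockout). Without the low-count filter the averaged adjusted p was 0.0512.

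The Dachsous-Fat4 pair, in which Dchs1 is the ligand and Fat4 the receptor, gave smaller values. In PBS and ethanol libraries of wild type Dchs1 was at 16.8 ± 2.38 and 14.5 ± 0.806 CPM (SD, 3 libraries each), and in those of the knockout at 18.2 ± 0.358 and 14.4 ± 1.118. Its averaged log2 change was −0.28 (SE 0.0740, adjusted p = 0.0352), a call lost in 10 of the 12 fits that left out 1 library (adjusted p up to 0.0853). Fat4 was at 13.3 ± 1.56 and 15.7 ± 2.29 CPM in wild type, and at 15.9 ± 1.04 and 14.95 ± 1.58 in the knockout, PBS first. Its averaged log2 change was 0.07 (adjusted p = 0.669). Dchs2, close to 1 CPM, had an averaged change of 0.10 (adjusted p = 0.840). Per kilobase of exon, Fat3 was above Fat4 with PBS (1.73 against 0.776 in wild type, 2.18 against 0.927 in the knockout) and below it with ethanol (0.491 against 0.915, and 0.531 against 0.871).

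**Figure D3:**
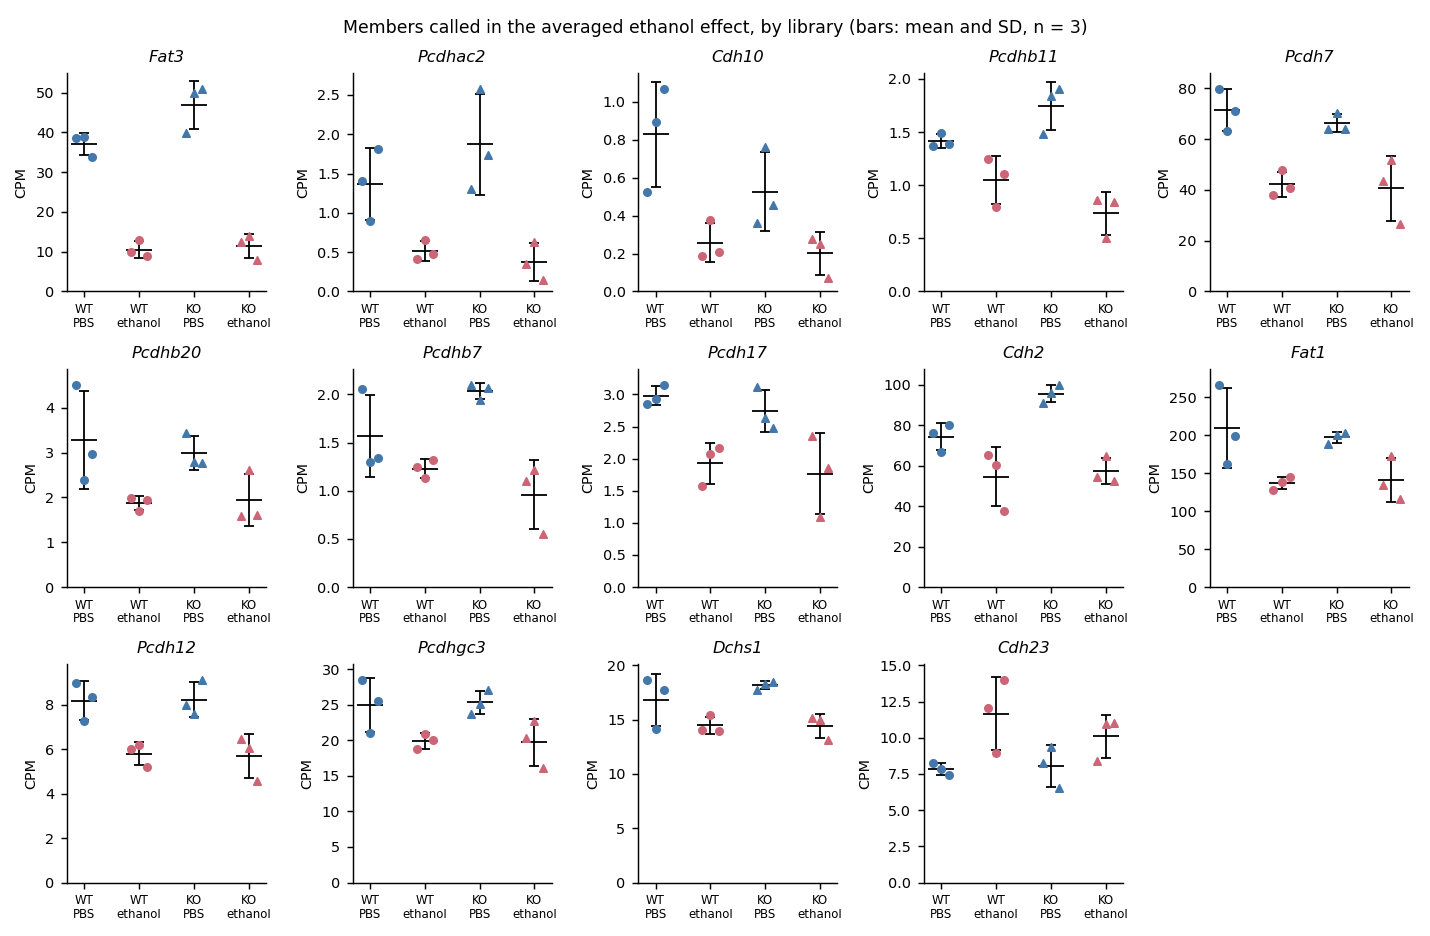
Level in CPM (vertical axes start at 0) of the 14 members called in the averaged ethanol effect, in each library (circles wild type, triangles knockout, blue PBS, red ethanol), with the mean and SD of each group of 3. The ethanol points of Fat3 are all below 14 CPM and its PBS points all above 33 CPM, while Cdh23 is the single member with higher ethanol means.

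RefSeq promoter windows (GRCm38.p6) were at hand for 15 of the 67 members and 6 of the 14 called ones. The sequences below are the 250 bases before the start of these 6 genes, 5′ to 3′ on the gene's strand with each CpG in capitals. Cdh23 is the called member that was higher and the other 5 were lower. They are shown to compare the CpG content of called members. The windows are chr9:16502055-16502304 (minus strand, Fat3), chr8:44949958-44950207 (plus strand, Fat1), chr15:18820079-18820328 (plus strand, Cdh10), chr5:57717831-57718080 (plus strand, Pcdh7), chr14:84443313-84443562 (plus strand, Pcdh17), chr10:60696491-60696740 (minus strand, Cdh23).
Fat3: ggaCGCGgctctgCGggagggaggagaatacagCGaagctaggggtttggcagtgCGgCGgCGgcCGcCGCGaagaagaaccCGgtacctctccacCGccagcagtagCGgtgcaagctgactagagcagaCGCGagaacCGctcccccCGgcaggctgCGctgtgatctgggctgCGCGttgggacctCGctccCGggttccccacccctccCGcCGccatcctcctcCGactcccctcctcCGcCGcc
Fat1: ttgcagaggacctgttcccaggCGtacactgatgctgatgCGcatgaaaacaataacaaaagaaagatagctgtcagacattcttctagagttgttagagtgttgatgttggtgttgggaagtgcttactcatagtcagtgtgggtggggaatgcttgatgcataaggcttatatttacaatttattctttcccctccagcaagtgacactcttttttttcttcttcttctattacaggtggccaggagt
Cdh10: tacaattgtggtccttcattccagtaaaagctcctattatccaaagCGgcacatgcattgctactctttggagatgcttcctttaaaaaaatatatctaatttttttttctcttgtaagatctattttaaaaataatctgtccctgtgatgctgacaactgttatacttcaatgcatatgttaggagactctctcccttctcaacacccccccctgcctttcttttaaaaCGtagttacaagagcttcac
Pcdh7: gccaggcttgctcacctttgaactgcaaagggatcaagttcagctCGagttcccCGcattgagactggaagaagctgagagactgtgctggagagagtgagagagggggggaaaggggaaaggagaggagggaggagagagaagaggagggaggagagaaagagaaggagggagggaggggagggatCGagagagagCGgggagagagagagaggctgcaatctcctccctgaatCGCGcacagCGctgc
Pcdh17: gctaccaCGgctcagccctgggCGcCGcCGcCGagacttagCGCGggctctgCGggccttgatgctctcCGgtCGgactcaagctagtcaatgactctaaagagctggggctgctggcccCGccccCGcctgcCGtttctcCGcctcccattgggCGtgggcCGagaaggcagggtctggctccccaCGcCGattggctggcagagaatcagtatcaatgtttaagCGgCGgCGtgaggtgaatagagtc
Cdh23: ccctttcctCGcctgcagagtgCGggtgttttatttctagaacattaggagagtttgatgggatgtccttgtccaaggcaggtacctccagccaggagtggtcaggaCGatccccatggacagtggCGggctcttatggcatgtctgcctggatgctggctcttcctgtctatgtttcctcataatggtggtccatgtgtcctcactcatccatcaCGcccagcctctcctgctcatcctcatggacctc
Among the lower members, CpG numbers ran from 27 in Fat3 and 21 in Pcdh17 to 7 in Pcdh7 and 2 each in Fat1 and Cdh10, and Cdh23 with 5 CpG lies within that range. GC content was 70.4% in Fat3 and 36.8% in Cdh10. The median over 32851 windows of this length was 6 CpG (quartiles 2 and 16) and 52.4% GC. Counting both strands, the letters GGGCGG (32.7% of all windows) occurred in Pcdh17 only of the 6, GGAATG (12.6%) in Fat1 and Cdh10, TGTGGT (14.1%) in Cdh10 and TATAAA (12.4%) in none. The RefSeq start of Fat3 lies 769 bases upstream of its start site in the GENCODE annotation used for its coordinates. For Fat1 and Cdh10 the RefSeq start lies 14761 and 1382 bases inside the GENCODE gene, so their windows are not the sequence before the outermost annotated start. The start of Pcdh7 differs by 114 bases, and those of Pcdh17 and Cdh23 are the same in both.

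Among the classical cadherins, Cdh2 fell. Its level was 76.2, 66.8 and 80.1 CPM in wild type with PBS and 65.1, 60.4 and 37.8 CPM with ethanol. The knockout libraries had 91.1, 95.9 and 99.9 CPM with PBS and 54.6, 64.6 and 52.4 CPM with ethanol. The groups did not overlap in either genotype, and the gap was narrow in wild type. The averaged log2 change was −0.60 (SE 0.120, adjusted p = 0.0126), held in all 12 fits that left out 1 library. In the knockout alone it was −0.74 (SE 0.170, adjusted p = 0.0562), and it passed under DESeq2 (adjusted p = 0.000766) and limma-voom (0.0439).

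Cdh11, the other osteoblast classical cadherin, was at 177 ± 16.6 CPM in wild type with PBS and 164 ± 29.03 with ethanol, and at 207 ± 9.33 and 174 ± 19.4 in the knockout (SD, n = 3). Its averaged log2 change was −0.18 (SE 0.0883, adjusted p = 0.217). Cdh5 was at 88.5 ± 4.10 and 79.6 ± 8.98 CPM in wild type and at 81.4 ± 3.11 and 77.0 ± 3.63 in the knockout, with an averaged change of −0.12 (SE 0.0551, adjusted p = 0.205). Neither of these abundant genes passed the test. The type II cadherin Cdh10, known from brain, was called lower (averaged −1.52, SE 0.349, adjusted p = 0.0187), but on 2 to 23 counts per library. Its level was 0.523, 0.895 and 1.06 CPM in wild type with PBS and 0.184, 0.376 and 0.211 CPM with ethanol. In the knockout it was 0.362, 0.764 and 0.455 CPM with PBS and 0.276, 0.252 and 0.0730 CPM with ethanol. The call was lost without library 2 (adjusted p = 0.0573) and without libraries 8, 9 and 12 (adjusted p = 0.150). E-cadherin (Cdh1, averaged change −0.08), retinal cadherin (Cdh4, 0.02) and Cdh24 (−0.04) did not pass (adjusted p = 0.697, 0.969 and 0.887).

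Cdh23, a tip-link protein of sensory hair cells, was the called member that was higher. It was at 8.25, 7.86 and 7.45 CPM in wild type with PBS and at 12.03, 8.97 and 13.96 CPM with ethanol. Knockout levels were 8.28, 9.38 and 6.53 CPM with PBS and 8.39, 10.9 and 10.99 CPM with ethanol. The groups did not overlap in wild type and overlapped in the knockout. The averaged log2 change was 0.44 (SE 0.126, adjusted p = 0.0431), a call lost in 9 of the 12 fits that left out 1 library (adjusted p up to 0.103), without libraries 8, 9 and 12 (0.195) and under limma-voom (0.0629).

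The 3 members Cdh13, Cdh15 and Cdh19, known from vessel wall, muscle and nerve, were set beside the muscle content of the libraries, a choice made after their values were seen. Cdh13, which encodes the membrane-anchored T-cadherin that binds adiponectin, was at 24.7, 23.6 and 27.8 CPM in the high-muscle libraries 8, 9 and 12 and at 5.16 to 11.1 CPM in the other 9. Its mean was 3.06-fold higher in those 3 libraries, the largest ratio among the 67 members. With them its group means for PBS and ethanol were 18.5 ± 9.84 and 14.7 ± 11.7 CPM in wild type and 8.52 ± 2.13 and 8.52 ± 1.37 in the knockout (SD, n = 3). Cdh15, in contrast, was at 23.7 to 36.1 CPM over a 28.6-fold range of summed muscle genes, with a ratio of 0.838. Of 4 satellite cell regulators, Pax7 and Myf5 were too low to be tested, while Myod1 and Myog were tested. Summed CPM of these 4 was 7.61, 5.09 and 4.90 in libraries 8, 9 and 12 and 0.0922 to 2.54 in the others. The part of satellite cells in the Cdh15 level was not tested. Cdh19, a cadherin of the Schwann cell lineage, had a ratio of 2.19 on 2 to 25 counts. In the knockout Cdh19 was at 0.181, 0.208 and 0.124 CPM with PBS and at 0.863, 0.336 and 0.621 CPM with ethanol (log2 change 1.80, SE 0.728, adjusted p = 0.239). With the muscle list as a covariate Cdh19 passed as higher in the knockout and in the averaged effect. It also passed as higher in the knockout without that covariate, in a fit of only the groups compared. Those knockout fits called 4.86% and 9.19% of all genes. In the main fit, 9 Schwann cell and nerve markers had a median knockout change of 0.00028 and 0 calls. Their summed CPM was 147 to 151 with PBS and 153 to 160 with ethanol in the knockout. In wild type it was 143 to 152 with PBS and 159 to 163 with ethanol. The part of nerve cells in the Cdh19 level was not tested.

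**Figure D4:**
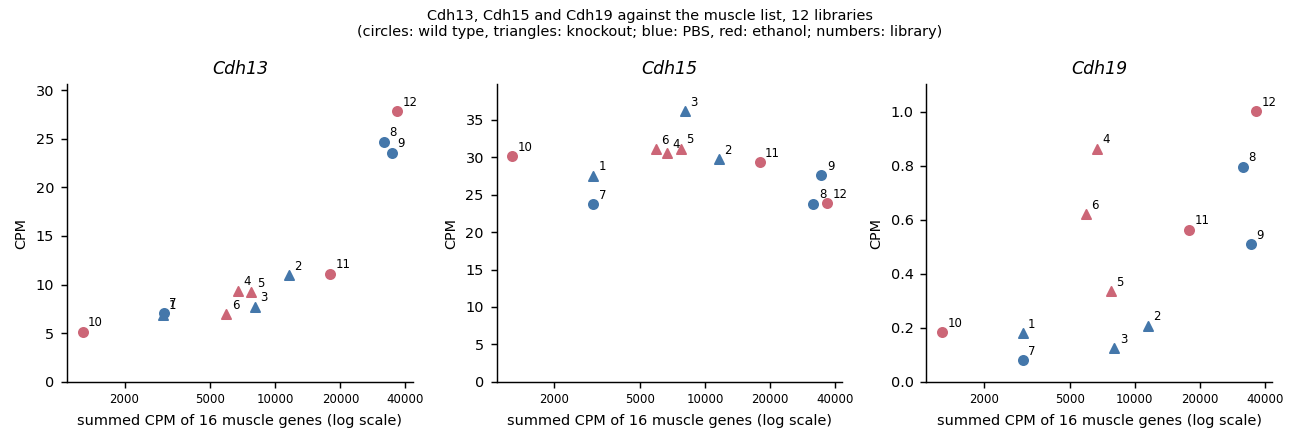
CPM of Cdh13, Cdh15 and Cdh19 in each library against the summed CPM of 16 skeletal muscle genes (log axis), with library numbers beside the points. Cdh13 sits above 23 CPM in the high-muscle libraries 8, 9 and 12 and below 12 CPM elsewhere, while Cdh15 shows no such step.

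Among the nonclustered protocadherins, Pcdh7, a delta-1 protocadherin, fell from 79.5, 63.1 and 71.2 CPM to 38.0, 47.7 and 40.9 CPM in wild type. In the knockout it was at 64.1, 70.4 and 64.1 CPM with PBS and at 43.5, 51.6 and 26.5 CPM with ethanol. The groups were separate in both genotypes. The averaged log2 change was −0.73 (SE 0.143, adjusted p = 0.0119), held in the 12 fits that left out 1 library, at −0.79 without libraries 8, 9 and 12 (adjusted p = 0.0933). Of the 10604 exon bases of Pcdh7, 2235 (21.1%) overlap exons on the opposite strand, the largest share outside the protocadherin clusters. Strand treatment of reads was not given, so the Pcdh7 level carries that uncertainty. The other delta-1 genes, Pcdh1 and Pcdh9, had averaged changes of −0.02 and 0.23 (adjusted p = 0.932 and 0.599).

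The delta-2 gene Pcdh17 was at 2.86, 2.93 and 3.15 CPM in wild type with PBS and 1.57, 2.07 and 2.16 CPM with ethanol. The knockout libraries had 3.11, 2.64 and 2.48 CPM with PBS and 2.35, 1.09 and 1.86 CPM with ethanol. The averaged change was −0.63 (SE 0.171, adjusted p = 0.0377), lost in 8 of 12 fits without 1 library (adjusted p up to 0.0896) and without libraries 8, 9 and 12 (adjusted p = 0.116). Pcdh18 was at 26.1 ± 1.61 and 21.3 ± 2.66 CPM in wild type and 31.2 ± 2.35 and 19.9 ± 6.68 in the knockout (PBS and ethanol). Its averaged change of −0.47 (SE 0.144, adjusted p = 0.0615) did not pass, although no ethanol library reached a PBS library of its genotype. Pcdh18 was called lower in the averaged effect under DESeq2, under limma-voom and without library 5 or 6. In the knockout it was called lower under DESeq2 and without library 5. Pcdh19, an X-linked gene known from epilepsy, had a change of 0.16 (adjusted p = 0.540).

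Pcdh12, known from endothelial cells, was at 8.98, 7.26 and 8.33 CPM in wild type with PBS and at 5.99, 6.20 and 5.21 CPM with ethanol. In the knockout it was at 7.99, 7.61 and 9.09 CPM with PBS and at 6.45, 6.05 and 4.56 CPM with ethanol. The averaged change was −0.51 (SE 0.105, adjusted p = 0.0112), held in all 12 fits that left out 1 library. Pcdh12 was not called in either genotype alone, at −0.50 in wild type and −0.53 in the knockout. The 8 endothelial markers had median changes of −0.12 in wild type and −0.01 in the knockout. Of these markers 0 were called in either genotype, where 1.26% and 1.87% of all genes were.

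The protocadherin clusters hold 41 of the members, with 1 alpha, 19 beta and 21 gamma genes, all on chromosome 18. Alpha and gamma genes splice their own first exon to shared constant exons. With genes on both strands counted, each gamma gene shares 31.5% to 73.6% of its exon bases with another gene and Pcdhac2 48.6%. For some gamma genes part of this overlap is with genes on the opposite strand. It is 1381 of 4756 exon bases in Pcdhga11 and 1559 of 5499 in Pcdhgc3. The labels do not say how reads in shared exons were assigned, and levels of single gamma genes are uncertain. Of the beta genes, 16 of 19 share no exon base with another gene.

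Most clustered genes were fitted below 0 after ethanol. Summed over 41 genes, the level was 109 ± 22.5 CPM in wild type with PBS and 87.1 ± 5.17 with ethanol, and 109 ± 3.87 and 89.4 ± 11.3 in the knockout (SD, n = 3). Beta genes summed to 33.9 ± 6.63 and 26.7 ± 1.97 CPM in wild type, and to 35.9 ± 1.21 and 27.7 ± 1.81 in the knockout. By library, the beta sums were 40.8, 27.5 and 33.4 against 26.5, 28.8 and 24.9 CPM in wild type, which overlapped. In the knockout they were 35.6, 34.8 and 37.2 against 28.6, 28.99 and 25.7 CPM, which did not. In the averaged effect 18 of the 19 beta genes and 17 of the 21 gamma genes were fitted below 0, beside 52.1% of all genes. Clustered genes share libraries and a locus, and gamma genes share exons. Counts of them are thus a description and not counts of independent genes. Of the 41 clustered genes 5 were called lower (12.2%, against 5.81% of all genes) and 0 higher.

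**Figure D5:**
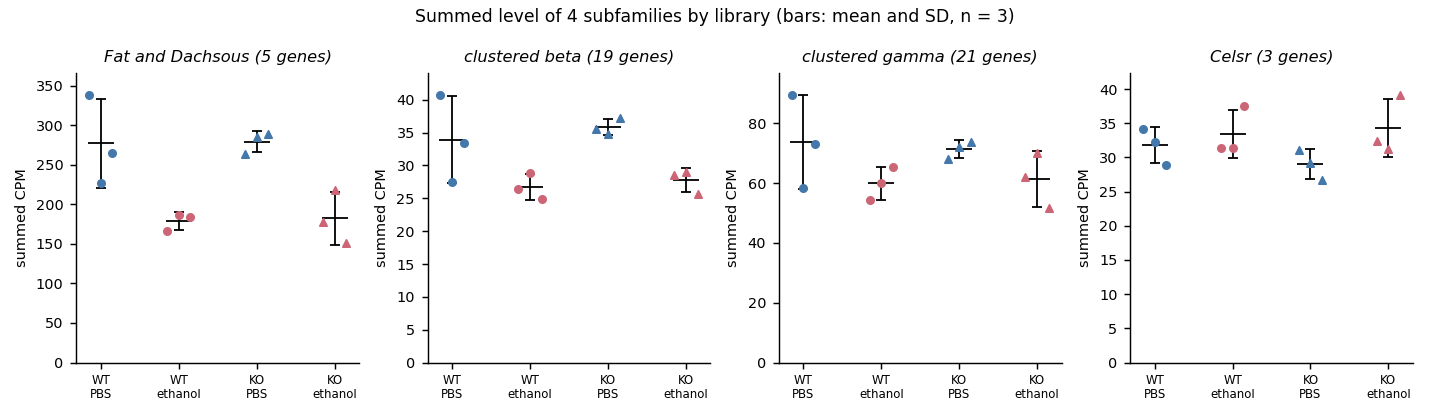
Summed CPM of the Fat and Dachsous, clustered beta, clustered gamma and Celsr genes in each library (circles wild type, triangles knockout, blue PBS, red ethanol), with the mean and SD of each group of 3 and axes from 0. The Fat and Dachsous means are 277 and 179 CPM with PBS and ethanol in wild type and 279 and 182 in the knockout, without overlap, and the Celsr points overlap in wild type only.

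Pcdhac2, a C-type isoform of the alpha cluster, was at 1.41, 0.895 and 1.81 CPM in wild type with PBS and at 0.415, 0.657 and 0.474 CPM with ethanol. Knockout levels were 1.30, 2.57 and 1.74 CPM with PBS and 0.345, 0.630 and 0.146 CPM with ethanol. No ethanol library reached a PBS library. It fell by 2.34 on the log2 scale in the knockout (SE 0.436, adjusted p = 0.0226) and by 1.87 averaged (SE 0.311, adjusted p = 0.00451), while the wild-type change of −1.40 did not pass (adjusted p = 0.144). The knockout call was lost without library 2, 3, 4 or 6 (adjusted p = 0.0815 to 0.101), on 4 to 74 counts per library, and the averaged call held in all 12 such fits.

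Pcdhb11 was at 1.37, 1.49 and 1.39 CPM in wild type with PBS and 1.24, 0.798 and 1.11 CPM with ethanol. In the knockout it was at 1.48, 1.84 and 1.90 CPM with PBS and 0.863, 0.504 and 0.840 CPM with ethanol. It fell by 1.23 on the log2 scale in the knockout (SE 0.238, adjusted p = 0.0268), a call lost without any 1 of the 6 knockout libraries (adjusted p up to 0.123), and by 0.83 averaged (SE 0.170, adjusted p = 0.0115). The averaged call was lost without libraries 8, 9 and 12 (−0.81, adjusted p = 0.0582). Pcdhb20 (averaged change −0.73, adjusted p = 0.0276), Pcdhb7 (−0.72, adjusted p = 0.0369) and Pcdhgc3 (−0.34, adjusted p = 0.0362) were also called lower. Those calls were lost in 6, 8 and 10 of the 12 fits that left out 1 library. Pcdhgc3 is the most abundant clustered gene per kilobase of exon, at 24.99 ± 3.75 and 19.9 ± 1.07 CPM in wild type and 25.3 ± 1.66 and 19.7 ± 3.30 in the knockout (PBS and ethanol).

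The 3 Celsr genes, seven-pass cadherins of planar cell polarity, gave 0 calls. Celsr1 (averaged change 0.20, adjusted p = 0.198), Celsr2 (0.23, adjusted p = 0.185) and Celsr3 (0.11, adjusted p = 0.538) were all fitted above 0.

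The comparison of genotypes gave no called member. Over all genes 2 (0.011%) were called under PBS and 2 (0.011%) under ethanol in the edgeR test, and DESeq2 and limma-voom also called 0 members. At an unadjusted p under 0.05 there was 1 member under PBS and 0 under ethanol, against 7.43% and 5.78% of all genes. The member was Cdh15, at 25.04 ± 2.21 CPM in wild type and 31.1 ± 4.46 in the knockout under PBS (log2 difference of knockout over wild type 0.31, SE 0.114, adjusted p = 0.605). Under ethanol the smallest p belonged to Pcdhb8 (0.62, SE 0.305, adjusted p = 0.820). For Fat3 the knockout PBS libraries (39.9 to 50.8 CPM) were all above the wild-type PBS libraries (33.8 to 38.9 CPM), as were those of 6 other members, 10.4% in all beside 8.98% of all genes. Lower knockout PBS libraries without overlap were seen for 4 members (5.97%, against 5.16% of all genes). Under ethanol 5 members were higher without overlap (7.46%, against 7.12%) and 0 lower (4.04% of all genes). The test of whether the ethanol effect differed between genotypes called 0 genes (0%) and 0 members. At an unadjusted p under 0.05 it gave 1 member, Pcdhb11 (−0.80, SE 0.340, unadjusted p = 0.0379), against 1.98% of all genes.

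Genes that work with cadherins were followed in 7 lists. Beta-catenin (Ctnnb1), which links classical cadherins to actin and carries Wnt signals, was at 511 ± 8.40 and 437 ± 19.3 CPM in wild type and at 538 ± 12.2 and 442 ± 20.6 CPM in the knockout, PBS first. Its log2 change was −0.28 in the knockout (SE 0.0580, adjusted p = 0.0335) and −0.25 averaged (SE 0.0410, adjusted p = 0.00390). Of 11 catenins and junction linkers tested, 2 were called lower in the averaged effect (Ctnnb1, and Ctnnd2 at −0.69) and 0 higher, where 5.81% of all genes were called lower. Over the 7 lists 9 of 65 genes were called (13.8%), near the 10.8% of all genes. The others did not pass, among them alpha-catenin (Ctnna1, −0.03).

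Of 9 cadherin-cleaving proteases tested, 2 were called higher and 0 lower in the averaged effect, where 5.02% of all genes were called higher. Both are parts of gamma-secretase, Psen2 (0.30, SE 0.0460, adjusted p = 0.00311) and Aph1a (0.23, SE 0.0455, adjusted p = 0.00908). Psen2 was at 34.3 ± 1.05 and 43.0 ± 2.67 CPM in wild type and at 37.8 ± 1.19 and 45.6 ± 2.38 in the knockout (PBS and ethanol). The remaining lists had 1 called gene each. Lower were Cadm1 (−0.64) among 7 nectins and nectin-like genes and Lix1l (−0.33) among 18 Hippo pathway genes. Higher were Prickle2 (0.51) among 12 planar polarity partners, Dsp (0.57) among 3 desmosomal genes and Cdhr4 (0.74) among 5 calsyntenin and cadherin-related genes.

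Levels of several bone cell markers differed between the same groups. All 9 osteoblast markers were fitted below 0 in both genotypes, with a median of −0.52 in wild type and −0.78 in the knockout, and 3 were called lower in the knockout (Runx2, Pth1r and Phospho1), where 0.903% of all genes were. All 7 osteocyte markers in wild type and 6 of 7 in the knockout were fitted below 0, with 0 called. Their sum was 2652 to 3900.5 CPM with PBS and 1787 to 2640 CPM with ethanol in wild type, and overlapped in the knockout. Osteoclast markers were fitted above 0 for 8 of 8 genes in wild type and 7 of 8 in the knockout, and Calcr, the calcitonin receptor, was called higher in both (2.33, adjusted p = 0.0109, and 1.62, adjusted p = 0.0200). The osteoclast sum was 2329 to 2558 CPM with PBS and 2982 to 3850 CPM with ethanol in wild type, and overlapped in the knockout. The part of osteocytes and osteoclasts in the cadherin levels was not tested. In a fit added after the results were seen, with the mean level of the 9 osteoblast markers as a covariate, 0 members were called in any ethanol comparison. That covariate did not overlap between PBS libraries (8.05 to 8.45, mean log2 CPM) and ethanol libraries (7.15 to 7.84), and over all genes the averaged calls went from 1967 to 0. With it Fat3 was at −1.28 averaged (adjusted p = 0.0828), Pcdhb11 at −1.10 (adjusted p = 0.365) and Pcdh17 at −1.07 (adjusted p = 0.344). Pcdhac2 was at −0.38, Pcdh7 at −0.15, Cdh2 at −0.08 and Pcdhgc3 at −0.01. Pcdhb20 was at −0.49, Fat1 at −0.26, Pcdhb7 at −0.23 and Cdh10 at −0.20. Of the remaining called members, Pcdh12 was at −0.11, Dchs1 at −0.07 and Cdh23 at 0.16. The neuron marker Tubb3 was also called lower in the knockout (−1.37, adjusted p = 0.0113). Stmn2, the other neuron marker tested, was not called, and the median of these 2 was −0.70 in the knockout. In wild type 0 of the 2 were called and 1 was fitted above 0. The remaining 4 of 6 neuron markers were too low to be tested. Osteoblast marker level and treatment cannot be told apart in this design.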

How the data were processed

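The 12 libraries (3 per group, pools of 2 mice) were sequenced in bulk. Raw counts for each Ensembl gene were deposited as whole numbers. STAR 2.5.2b, Trimmomatic 0.36, Subread 1.5.2, featureCounts and GRCm38 are named in the submitters' processing notes, with settings, strand and multi-mapping treatment not given in the sources used here. The authors' deposited normalized signal equals those counts over a factor that is constant within a library (relative spread at most 9.88e-10). It lists genes with a mean count above 10 and was used for 1 alternative and for the choice of members.

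Coordinates and exon lengths came from GENCODE M21 (48970 identifiers matched). After filterByExpr (count of 10, total of 15) counts were scaled by TMM (factors 0.908 to 1.05) and fitted in edgeR 4.0.16 (R 4.3.3) with a robust quasi-likelihood model of 1 coefficient per group (8 residual degrees of freedom). A call needed a Benjamini-Hochberg adjusted p under 0.05 over 18161 genes, and every adjusted p is from this test unless another tool is named. SE is the log2 fold change divided by the square root of F. The code was checked on simulated counts with known changes in the wild-type ethanol group and the same dispersion for every gene. That check did not cover the other comparisons or the uneven libraries seen here. Library pairs within a group differed beyond counting noise wherever a chi-square was obtained (17.3 to 135 per gene). No value was obtained for libraries 1 and 3, 2 and 3, 4 and 6, 7 and 8, 8 and 9, and 10 and 11.

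All members called in any comparison are named. Others were taken from the 4 with the smallest p per comparison and the 3 most abundant per subfamily, or were chosen after their values were seen. Results are not given for Pcdhgb1, Pcdhgb2, Pcdhgb5 and Pcdhb4, which had small p but no call in the main fit. They are also not given for the abundant clustered genes Pcdhb9, Pcdhb17, Pcdhgb6 and Pcdhgc5. Partner genes are the called ones, at most 4 per list, or the one with the smallest p. Members and lists were chosen with earlier results of these data known. Alternatives were RLE factors, no filter, DESeq2 1.42.0, a filter of 1 CPM in 3 libraries, limma-voom and limma-trend (limma 3.58.1, log2 of the normalized signal plus 1), the muscle list or, added later, the osteoblast list as a covariate, leaving out libraries 8, 9 and 12, only the groups compared, and leaving out each library.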

Additional observations from a re-analysis of the deposited data

How the results depend on the processing

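No paired analysis was possible because library numbers run from 1 to 12 and no number is shared by groups. The ethanol effect in wild type lowered 1 member, 3 under DESeq2, 0 without libraries 8, 9 and 12, 0 with the osteoblast covariate and 1 to 2 when each library was left out. In the knockout the 3 lower members became 8 under DESeq2, 5 under limma-voom, 5 with the muscle covariate, 7 without libraries 8, 9 and 12, 7 in a fit of only the groups compared, 0 with the osteoblast covariate and 1 to 4 when each library was left out. Higher calls in the knockout went from 0 to 1 with the muscle covariate and to 1 with only the groups compared. In the averaged effect the 13 lower calls became 0 with the osteoblast covariate and 7 to 14 when each library was left out (7 without library 2). The 1 higher call became 0 under limma-voom, 2 with the muscle covariate, 0 without libraries 8, 9 and 12, 0 with the osteoblast covariate and 0 to 1 when each library was left out. The share of all genes called moved with these settings. In wild type it was 1.26%, 3.86% under DESeq2, 0.143% without libraries 8, 9 and 12, 0.00551% with the osteoblast covariate and 0.182% to 1.77% when each library was left out. In the knockout it was 1.87%, 5.23% under DESeq2, 2.53% under limma-voom, 4.86% with the muscle covariate, 7.53% without libraries 8, 9 and 12, 9.19% with only the groups compared, 0% with the osteoblast covariate and 0.319% to 3.15% when each library was left out. In the averaged effect it was 10.8%, 11% under limma-voom, 15.3% with the muscle covariate, 9.26% without libraries 8, 9 and 12, 0% with the osteoblast covariate and 5.85% to 11.8% when each library was left out. Of 728 alternatives over 34 gene results, 630 kept direction and call, 88 lost the call, 10 gained it and 0 reversed. The 34 include results not called in the main fit, among them all those of the genotype comparisons and the interaction. Such results could not lose a call, so the 88 losses all fall on called results. The 630 therefore do not measure how firm the calls were. The comparisons of genotypes and the test of the difference between ethanol effects called 0 members in every alternative run. The causes of these changes were not tested, and Cdh10, Cdh19 and Pcdhac2 are limited by low counts.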
